A study of Mus musculus with 28 samples.

Results

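SoxC transcription factors are a small group within the Sox family of DNA-binding proteins. They are encoded by 3 genes, Sox11 (ENSMUSG00000063632), Sox4 (ENSMUSG00000076431) and Sox12 (ENSMUSG00000051817), chosen by name among the 55359 genes listed for cohort F and the 55416 listed for cohort G. The group was picked with mutant and WT levels of Sox11 in view, so mutant against WT is described here for the 3 genes and is not tested. Tamoxifen against placebo was tested, except for Sox11 in Bin1 mck-/- mice, in mice whose placebo groups also enter those mutant and WT levels.

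Sox proteins bind DNA through an HMG box, a domain that sits in the minor groove and bends the helix, and SoxC members add a strong activation domain at the carboxyl end. They are best known from embryos, where Sox4 and Sox11 act together in precursors of the nervous system, heart and skeleton, while Sox12 is the weakest activator of the group. Adult muscle fibers hold little Sox11, and the gene is known to be turned on in injured neurons and in muscle that has lost its nerve.

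Bulk RNA-sequencing of tibialis anterior muscle compared 28 mice of the C57BL/6N strain at 8 weeks of age, in 7 groups of 4. Cohort G held WT mice on placebo or tamoxifen and Dnm2 S619L/+ mice on placebo or tamoxifen. Cohort F held WT mice on placebo and Bin1 mck-/- mice on placebo or tamoxifen, with no WT treated group. Dnm2 S619L/+ mice carry 1 mutant copy of dynamin 2, a membrane-cutting GTPase, in the whole body, and Bin1 mck-/- mice lack amphiphysin 2, a membrane-bending protein, where the mck promoter acts, in striated muscle. Both are models of centronuclear myopathy, a muscle disease with misplaced fiber nuclei, and tamoxifen, a modulator of estrogen receptors, was mixed into the food. The labels give neither the sex of the mice nor which of them were littermates.

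Reads on genes numbered 15586333 to 109710886 per mouse. Muscle fiber markers such as Acta1 and Ckm summed to 68400 to 153000 CPM (reads of a gene scaled to a library of 1000000 reads, after TMM scaling within a cohort) in every mouse, as the tissue label says. Bin1 fell from 540 ± 15.7 CPM (SD, n = 4) in WT to 56.2 ± 5.10 CPM in Bin1 mck-/- mice, and the Dnm2 point mutation cannot be read from these counts. Cohorts differ in library protocol, with 300 ng of RNA and 2 min of fragmentation in cohort G and 350 ng and 8 min in cohort F, so levels are compared within a cohort. In bulk muscle, fewer cells of a type and less RNA per cell cannot be told apart. The summed bone markers (Sp7, Bglap, Ibsp, Alpl, Dmp1 and Phex) were higher in all treated mice of cohort G than in placebo mice of their genotype. In cohort F this held for treated mouse 2 alone. Phex by itself had a lower mean on tamoxifen in WT, Dnm2 S619L/+ and Bin1 mck-/- mice. The bone marker sums stand beside the results below.

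The DNA just before each gene's start is shown because the 3 genes behaved differently in the same muscles. These are the 300 bases from 250 before to 50 after the annotated start, from RefSeq on GRCm38.p6, at chr12:27342669-27342968, chr13:28953650-28953949 and chr2:152397997-152398296 for Sox11, Sox4 and Sox12, all on the minus strand. Capitals mark the E-box CANNTG, which basic helix-loop-helix factors such as myogenin bind.
Sox11: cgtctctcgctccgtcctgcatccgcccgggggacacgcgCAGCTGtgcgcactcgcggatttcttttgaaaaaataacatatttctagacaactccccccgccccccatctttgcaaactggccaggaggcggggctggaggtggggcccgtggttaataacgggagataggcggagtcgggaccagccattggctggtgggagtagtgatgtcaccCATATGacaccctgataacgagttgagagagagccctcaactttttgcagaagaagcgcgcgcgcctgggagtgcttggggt
Sox4: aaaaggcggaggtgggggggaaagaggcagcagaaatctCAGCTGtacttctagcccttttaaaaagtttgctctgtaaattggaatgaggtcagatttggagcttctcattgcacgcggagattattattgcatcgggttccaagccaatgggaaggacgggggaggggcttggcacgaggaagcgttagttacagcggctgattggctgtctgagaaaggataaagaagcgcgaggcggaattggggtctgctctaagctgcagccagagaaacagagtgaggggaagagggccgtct
Sox12: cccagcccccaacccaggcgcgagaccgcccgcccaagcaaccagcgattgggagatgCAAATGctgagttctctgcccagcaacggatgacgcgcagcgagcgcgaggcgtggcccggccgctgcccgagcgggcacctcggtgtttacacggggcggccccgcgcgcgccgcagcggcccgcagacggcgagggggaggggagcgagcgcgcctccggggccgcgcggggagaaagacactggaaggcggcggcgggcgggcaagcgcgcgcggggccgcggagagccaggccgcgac
The Sox12 window was the richest in G and C, at 76.7%, against 58.7% for Sox11 and 52.0% for Sox4, and it held 47 CG pairs against 21 and 12. Sox11 had E-boxes starting at -210 and -32 from the start, and Sox4 and Sox12 had 1 each, at -211 and -192. E-boxes occurred in 72.3% of all 32817 promoter windows of this length, so their presence sets none of the 3 apart. The CCAAT box, read on both strands, was found 4 times before Sox4 and 1 time each before Sox11 and Sox12, and 37.4% of all windows held it. Neither the AP-1 site TGANTCA nor the CRE TGACGTCA, which read the same on both strands, matched in any of the 3 windows (7.81% and 1.79% of all windows), and no E-box overlapped a CCAAT box.

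Sox11 was close to silent in WT muscle and was read in every mutant mouse on placebo. In cohort G, WT mice had 0.233, 0.0566, 0.158 and 0.112 CPM, from 2 to 23 reads each, and Dnm2 S619L/+ mice had 13.3, 11.4, 5.61 and 15.1 CPM, from 124 to 590 reads. The lowest Dnm2 S619L/+ mouse lay far above the highest WT mouse. Group means were 11.4 ± 4.12 and 0.140 ± 0.0748 CPM (SD, n = 4), a ratio of 81.4. Fitted with a prior count of 2, which pulls low genes toward no change, the log2 fold change was 5.77 (SE 0.455). This SE, like those below, is that of the value without the prior count. In this comparison 21.9% of all genes tested passed an adjusted p of 0.05.

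In cohort F, too, Sox11 was higher in the mutant. WT mice 5 to 8 had 0.168, 0.0348, 0.0320 and 0 CPM, from 6, 1, 1 and 0 reads, and a count of 0 in mouse 8 allows up to 0.0881 CPM by counting error. Bin1 mck-/- mice had 1.92, 1.48, 0.728 and 5.86 CPM, from 65, 46, 23 and 220 reads, and none overlapped WT. The means were 2.5 ± 2.29 against 0.0586 ± 0.0745 CPM, a ratio of 42.7, and the log2 fold change was 4.36 (SE 1.21). Mouse 4 alone gave most of the Bin1 mck-/- reads, and leaving it out brought the value to 3.51. Sox11 passed the filter on low counts in cohort F through this group, so a difference was built into its being listed, and 2.61% of all genes passed the threshold in the comparison.

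**Figure D1:**
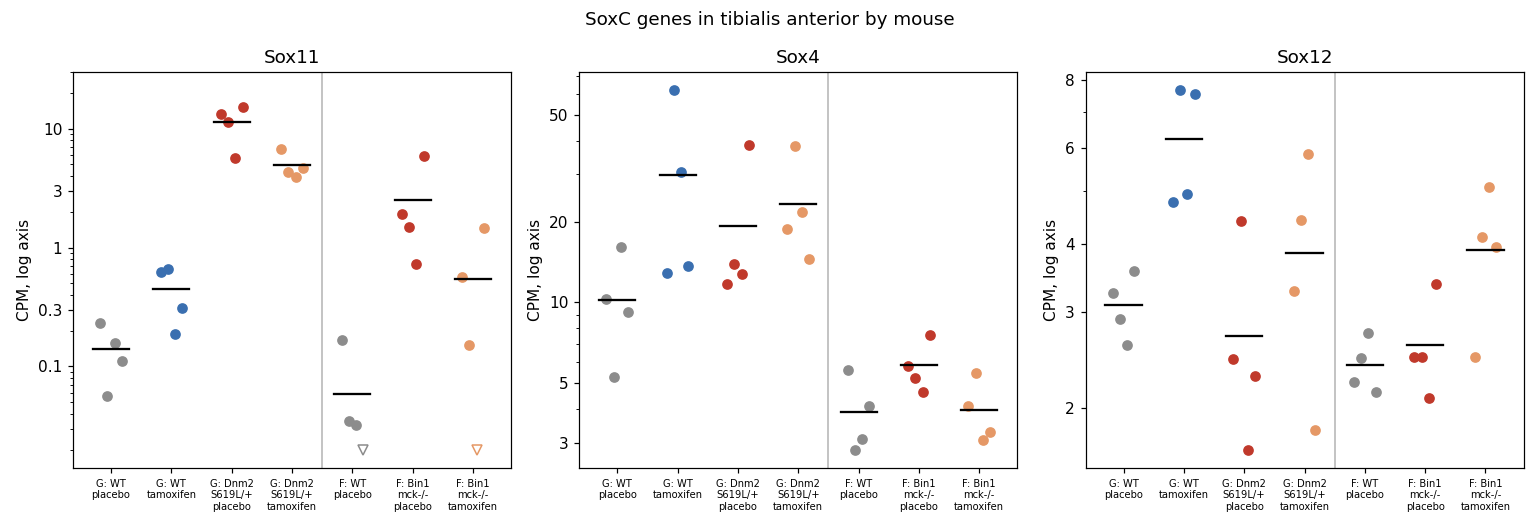
CPM of Sox11, Sox4 and Sox12 in each of the 28 mice on log axes, by group, with cohort G left and cohort F right of the grey line; black lines are group means and open triangles at the bottom are mice with 0 reads. Sox11 separates both mutants on placebo from their WT, at 5.61 to 15.1 against 0.0566 to 0.233 CPM in cohort G, while Sox4 and Sox12 overlap between mutant and WT.

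Mean Sox11 was lower under tamoxifen in Dnm2 S619L/+ mice. Treated mice had 6.75, 4.35, 3.93 and 4.69 CPM, and the highest of them exceeded the lowest placebo mouse at 5.61 CPM, so the groups overlapped. The mean was 4.93 ± 1.25 CPM, 0.432 of the placebo mean, and the log2 fold change was -1.2 (SE 0.332, edgeR adjusted p = 0.0375). Of all genes, 8.27% passed this test, 3.05% lower and 5.22% higher. Sox11 was chosen with the high values of these placebo mice in view. That choice by itself favors a fall, so no weight is put on this call and the fall is a description. The call was lost in 5 of 16 fits that left out 1 mouse (Dnm2 S619L/+ mice 1, 2 and 4 and treated mice 2 and 3, adjusted p up to 0.125), and the fold change stayed between -1.42 and -1.03.

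In WT mice Sox11 was tested on few reads. It passed the filter on low counts through the Dnm2 S619L/+ mice, where it is high, and WT and WT treated mice fitted alone gave it no value. WT treated mice had 0.623, 0.660, 0.188 and 0.311 CPM, from 4 to 31 reads, and the lowest of them lay below the highest placebo mouse. In the fit of the whole cohort the log2 fold change was 1.33 (SE 0.486, adjusted p = 0.0225), to a mean of 0.446 ± 0.232 CPM, where 15.8% of all genes rose and 11.9% fell. Leaving out WT mouse 2 or 4 or WT treated mouse 1 or 2 ended the call, with adjusted p up to 0.0812. Sox11 was also chosen with its low WT values in view, which by itself favors a rise, so no weight is put on this call. The effects in Dnm2 S619L/+ and WT mice differed by -2.52 (SE 0.587). This difference contains the mutant against WT value on placebo, which chose Sox11, so it is described without a test.

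Even on tamoxifen, Sox11 was higher in mutant than in WT muscle. The lowest Dnm2 S619L/+ treated mouse, at 3.93 CPM, lay above the highest WT treated mouse, at 0.660 CPM, and the ratio of means was 11.1. On the log2 scale the difference was 3.25 (SE 0.393), where 2.70% of genes passed. Mutant against WT is what the choice of the genes used, so this was not tested.

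Bin1 mck-/- mice on tamoxifen had 0.567, 0.152, 0 and 1.46 CPM of Sox11, from 13, 5, 0 and 40 reads. Their mean of 0.545 ± 0.657 CPM was 0.218 of the placebo mean, but the groups overlapped. The log2 fold change of -2.08 (SE 0.951) is a description, since Sox11 passed the filter in this cohort through the placebo mice it is set against. Without Bin1 mck-/- mouse 4 it was -1.25, and without treated mouse 4 it was -3.12. The effects in Bin1 mck-/- and Dnm2 S619L/+ mice differed by -0.93 (SE 0.908).

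Within cohort G, mean Sox11 went up from WT through WT treated and Dnm2 S619L/+ treated to Dnm2 S619L/+ mice, and the middle pair alone did not overlap between mice. In cohort F it went up from WT through Bin1 mck-/- treated to Bin1 mck-/- mice, and both neighbouring pairs overlapped.

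Sox4 overlapped between mutant and WT mice in both cohorts. WT mice of cohort G had 10.3, 5.29, 16.1 and 9.18 CPM and Dnm2 S619L/+ mice 11.7, 13.9, 12.7 and 38.6 CPM. Mouse 4 of the mutants stood apart, above every WT mouse. The log2 fold change was 0.93 (SE 0.534), or 0.34 without that mouse. In cohort F, WT mice had 5.59, 2.82, 3.10 and 4.13 CPM and Bin1 mck-/- mice 5.80, 5.25, 4.65 and 7.59 CPM. These groups overlapped through WT mouse 5 alone, and the log2 fold change was 0.57 (SE 0.254).

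Under tamoxifen, Sox4 rose in WT mice by edgeR's test. WT treated mice had 12.9, 62.0, 30.7 and 13.7 CPM, and mice 1 and 4 lay within the WT range. The log2 fold change was 1.56 (SE 0.537, adjusted p = 0.0414), from a mean of 10.2 ± 4.48 to 29.8 ± 23.0 CPM. The rise rested on few mice, since without WT treated mouse 2 it was 0.91 (adjusted p = 0.217), and 8 of 16 fits without 1 mouse lost the call (those without WT mice 1, 2 or 4, WT treated mice 2 or 3, Dnm2 S619L/+ mouse 3, or its treated mice 1 or 3).

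In the mutants, Sox4 passed no test of tamoxifen. Dnm2 S619L/+ treated mice had 18.7, 38.4, 21.7 and 14.5 CPM, all above 3 of the 4 placebo mice, and the log2 fold change was 0.28 (SE 0.523, adjusted p = 0.789). Bin1 mck-/- treated mice had 4.10, 5.46, 3.07 and 3.29 CPM, and the log2 fold change was -0.54 (SE 0.255, unadjusted p = 0.0477, adjusted p = 0.236). The effect in Dnm2 S619L/+ mice differed from that in WT mice by -1.28 (SE 0.745, adjusted p = 0.481) and from that in Bin1 mck-/- mice, taken as Bin1 mck-/- minus Dnm2 S619L/+, by -0.86 (SE 0.665, adjusted p = 0.446). Neither difference passed, where 0.259% and 1.71% of all genes did, and 3.13% passed for tamoxifen in Bin1 mck-/- mice. With both genotypes on tamoxifen, Sox4 was -0.35 (SE 0.52) in mutant against WT, described only, and 0.30 without WT treated mouse 2.

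A long non-coding gene, Gm26735, lies over Sox4 on the opposite strand in the GENCODE M21 annotation. The libraries kept strand, but whether the counting used it is not given in the sources used here, so reads of the pair may not be separated in the Sox4 counts. Neither Sox11 nor Sox12 has an overlapping gene in that annotation.

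Sox12 had the narrowest range of the 3 genes, from 1.68 to 7.68 CPM over all mice. In cohort G, WT mice had 3.25, 2.92, 2.61 and 3.57 CPM, and Dnm2 S619L/+ mice had 2.46, 4.42, 1.68 and 2.30 CPM, on both sides of WT. The log2 fold change between them was -0.20 (SE 0.329). In cohort F, WT mice had 2.24, 2.47, 2.75 and 2.14 CPM and Bin1 mck-/- mice 2.49, 2.48, 2.09 and 3.38 CPM, with a log2 fold change of 0.12 (SE 0.244). Mutant and WT levels of Sox12 were thus interleaved in both cohorts.

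Sox12 rose under tamoxifen in WT mice, without overlap between the groups. WT treated mice had 4.79, 7.68, 4.94 and 7.56 CPM, all above the highest WT mouse at 3.57 CPM. The mean went from 3.09 ± 0.418 to 6.24 ± 1.59 CPM, a log2 fold change of 0.99 (SE 0.323, adjusted p = 0.0305). Sox4 and Sox12 were thus called higher in this comparison, where 15.8% of all genes were. Sox11 is not counted with them, for the reasons given above. The Sox12 call was lost in 5 of 16 fits without 1 mouse (WT mice 1, 2 or 3 and WT treated mice 2 or 4), with log2 fold changes of 0.88 to 1.1.

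In mutants, Sox12 did not pass. Dnm2 S619L/+ treated mice had 3.28, 4.43, 5.86 and 1.82 CPM (log2 fold change 0.50, SE 0.33, adjusted p = 0.359). Bin1 mck-/- treated mice had 2.48, 4.13, 5.08 and 3.95 CPM, and 3 of the 4 lay above all placebo mice (log2 fold change 0.57, SE 0.243, unadjusted p = 0.0291, adjusted p = 0.187). Effects differed by -0.50 (SE 0.46, adjusted p = 0.695) between Dnm2 S619L/+ and WT mice and by 0.04 (SE 0.416, adjusted p = 0.965) between Bin1 mck-/- and Dnm2 S619L/+ mice. With both genotypes of cohort G on tamoxifen, Sox12 was -0.70 (SE 0.322) in mutant against WT, described only.

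**Figure D2:**
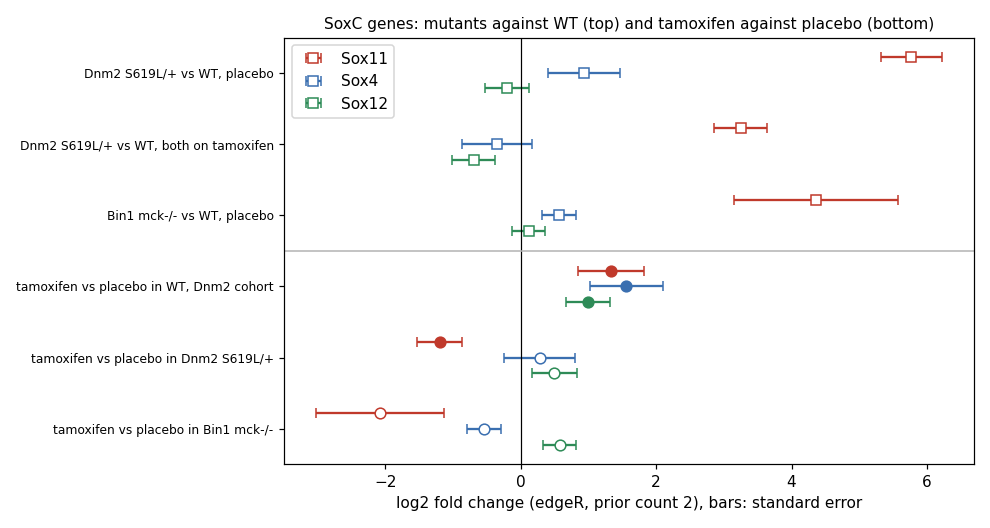
Log2 fold changes from edgeR with a prior count of 2 for Sox11, Sox4 and Sox12. Bars are standard errors of the values without the prior count. Squares above the grey line are mutant against WT and carry no test. Circles below it are tamoxifen against placebo, filled where the adjusted p was under 0.05. No weight is put on the filled Sox11 circles, since these placebo mice were in view when Sox11 was chosen. Sox11 stands far to the right in both mutants, at 5.77 and 4.36, and under tamoxifen it is at 1.33 in WT, -1.2 in Dnm2 S619L/+ and -2.08 in Bin1 mck-/- mice.

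Levels of different genes can be compared only per length of transcript. On CPM per kb of annotated exon (8311 bases for Sox11, 4795 for Sox4 and 4453 for Sox12, each gene having 1 exon), Sox4 had the highest mean of the 3 in every group but Bin1 mck-/- treated. In WT mice of cohort G the means were 2.13 ± 0.935 for Sox4, 0.693 ± 0.0938 for Sox12 and 0.0168 ± 0.00900 for Sox11 (SD, n = 4). In Dnm2 S619L/+ mice they were 4.01 ± 2.70, 0.609 ± 0.266 and 1.37 ± 0.496, so Sox11 took the second place.

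Sox11 thus made up 0.386% to 0.966% of the summed SoxC level per length in WT mice of cohort G and 17.5% to 34.9% in Dnm2 S619L/+ mice. On tamoxifen its share was 5.49% to 14.9% in Dnm2 S619L/+ mice. In cohort F the share was 0 to 1.2% in WT, 5.74% to 23.1% in Bin1 mck-/- and 0 to 10.1% in Bin1 mck-/- treated mice. Even where Sox11 was highest, Sox4 held 53.1% to 77.5% of the SoxC level.

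**Figure D3:**
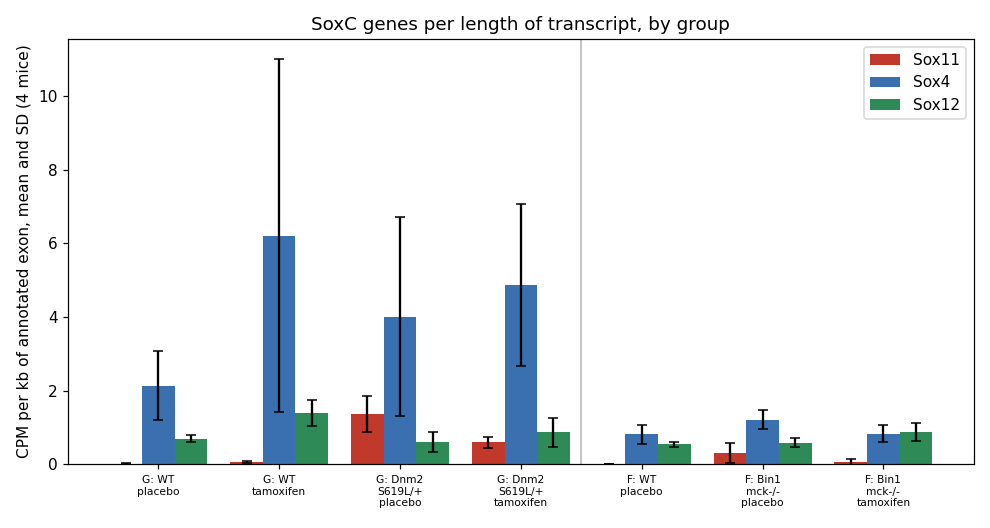
Mean CPM per kb of annotated exon of Sox11, Sox4 and Sox12 by group, with SD over 4 mice. Sox4 bars are the tallest in 6 of 7 groups, with wide errors in cohort G, and Sox11 exceeds Sox12 only in Dnm2 S619L/+ mice on placebo, at 1.37 against 0.609.

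The genes most like each SoxC gene were taken as those with the largest smaller-of-both Pearson r of log2 CPM, over the 16 mice of cohort G and the 12 of cohort F, among 14571 genes. For Sox11 they were Fosl1, Tubb6, Nfkb2, Hsf2bp, Mvp, Tmbim1, Tnfrsf23 and Msln, with smaller r from 0.973 to 0.915. Mice of a group lie together in such a correlation, so it mostly retells the difference between groups. Within groups, as deviations from each group's mean, r was 0.495 to 0.702 in cohort G and 0.741 to 0.957 in cohort F, both a description.

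Fosl1, a Fos-family subunit of the AP-1 factor, had 0 to 0.0791 CPM in WT mice of cohort G and 1.97 to 3.13 CPM in Dnm2 S619L/+ mice. Tubb6, a beta-tubulin, had 7.44 to 12.4 CPM and 67.8 to 217 CPM in the same groups. Nfkb2, a subunit of NF-kappaB, had 10.1 to 12.6 CPM and 30.9 to 50.2 CPM. These genes were picked for likeness to Sox11 in both cohorts, so they share its gap. In cohort F the Bin1 mck-/- mice lay above WT in all 3, as at 40.6 to 170 against 9.57 to 19.8 CPM of Tubb6. With tamoxifen, Dnm2 S619L/+ mice had 0.757 to 1.53 CPM of Fosl1, all below the placebo mice.

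**Figure D4:**
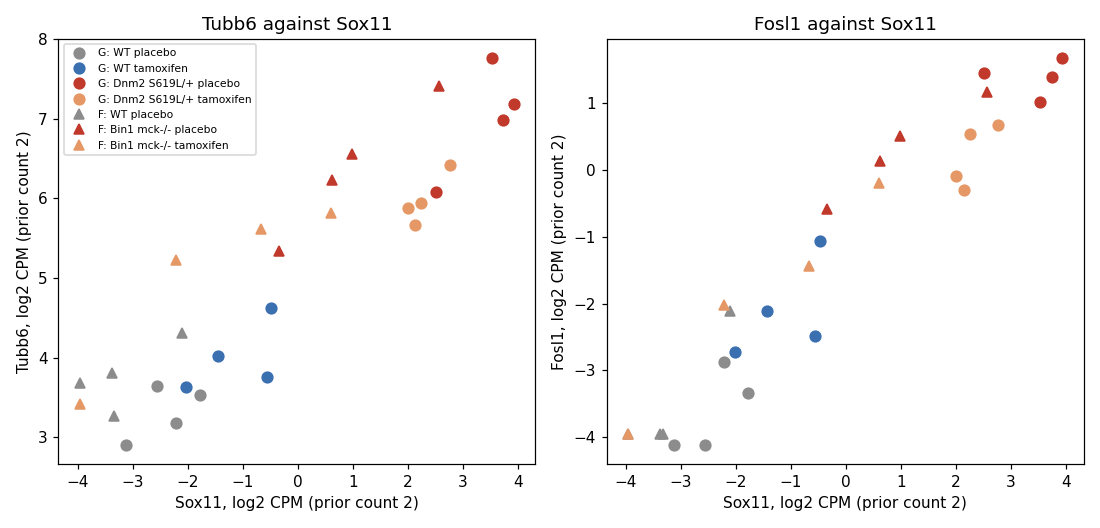
Log2 CPM of Tubb6 (left) and Fosl1 (right) against Sox11 in each mouse, with circles for cohort G and triangles for cohort F. WT mice lie at the lower left and Dnm2 S619L/+ mice at the upper right, with r of 0.977 and 0.973 over the 16 mice of cohort G and 0.969 and 0.985 over the 12 of cohort F.

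Sox4 and Sox12 had lower r with the genes most like them. Sox11 was chosen for a gap between mutant and WT, which raises r, so this does not rank the genes. The genes most like Sox4 were Ms4a6b, Dok1, Cd14, Pbk, Ucp2, Abr, Ctsh and B4galt1, with smaller r of 0.776 to 0.751, and Cd14 is a receptor of myeloid cells for bacterial lipopolysaccharide. Those most like Sox12 were Inf2, Fibin, Net1, Nell2, Lrrc4, Golgb1, Fuca1 and Ptprd, with smaller r of 0.815 to 0.736. Of the 8 genes per member, 5 for Sox11, 0 for Sox4 and 0 for Sox12 were also among the 8 highest in cohort G alone. In cohort F alone the counts were 4, 0 and 1, and the same limit holds for all of them. Among themselves the SoxC genes had r of 0.313 between Sox11 and Sox4 in cohort G and 0.657 in cohort F, -0.309 and -0.0352 between Sox11 and Sox12, and 0.369 and -0.166 between Sox4 and Sox12.

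A list of 12 genes that muscle is known to turn on, or to change, when it loses its nerve was set beside Sox11, since Sox11 is known from the same setting. In Dnm2 S619L/+ mice on placebo, 8 of 12 were higher than in WT and 0 lower by edgeR, with a median log2 fold change of 1.61 against 0.02 over all genes (12.1% of all genes were higher). They include Runx1, a transcription factor (3.36, SE 0.326, adjusted p = 1.48e-05), Gadd45a, a stress protein (1.86, SE 0.235, adjusted p = 0.000115), Hdac4, a deacetylase (0.93, SE 0.14, adjusted p = 0.000376), and myogenin, Myog (2.83, adjusted p = 0.000391). These 4 were named for their small p. Dach2, on the same list, was lower, at 1.3 to 2.26 CPM in Dnm2 S619L/+ against 3.37 to 5.18 CPM in WT mice, but edgeR did not call it. Unadjusted p was under 0.05 for 11 of 12, and DESeq2 called 9 higher and 1 lower.

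In Bin1 mck-/- mice, 3 of 12 were higher, Myog (2.26, adjusted p = 0.0135), Ncam1 (1.97, adjusted p = 0.0365), a cell adhesion molecule, and Runx1 (2.37, adjusted p = 0.0452), where 1.99% of all genes were. Myog stood at 15.5 to 40.9 CPM against 4.26 to 8.50 CPM in WT. The median over the list was 1.19 against 0.01 over all genes. The fetal acetylcholine receptor subunit Chrng was low in cohort F, at 0.253 to 0.959 CPM in Bin1 mck-/- against 0 to 0.383 CPM in WT mice. In cohort G it stood at 0.624 to 2.39 CPM in Dnm2 S619L/+ against 0.113 to 0.237 CPM in WT mice, without overlap.

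Under tamoxifen in Dnm2 S619L/+ mice, mean Sox11 was lower. There, 0 of 12 list genes passed by edgeR (1 with unadjusted p under 0.05, and 1 lower by DESeq2), and the median was -0.08. Over all genes 8.27% passed, so this is near the background. In WT mice Runx1 (3.27, adjusted p = 9.19e-05) and Ncam1 (2.29, adjusted p = 0.00159) rose, and the acetylcholine receptor subunits Chrna1 (-1.86, adjusted p = 0.00131) and Chrnd (-2.24, adjusted p = 0.0126) fell. These are 2 of 12 in each direction, where 15.8% of all genes rose and 11.9% fell, so the counts are near the background. In Bin1 mck-/- mice Chrna1 (-1.19, adjusted p = 0.0197) and Chrnd (-2.67, adjusted p = 0.0214) fell, where 1.61% of all genes did, and the list median was -1. The mean log2 CPM of the list correlated with Sox11 at r = 0.923 over the mice of cohort G and 0.886 over those of cohort F, and at 0.636 and 0.699 within groups, given as a description. Other lists also followed Sox11, with r of 0.85 in cohort G and 0.562 in cohort F for genes of immature or regenerating fibers, and 0.409 and 0.834 for macrophage markers. Within groups these were 0.312 and 0.296, and 0.525 and 0.487.

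Among 16 other Sox genes, 9 passed the filter on low counts in each cohort. Sox9, a SoxE factor of cartilage and glia, was the 1 that rose in both mutants, by 1.87 in Dnm2 S619L/+ (SE 0.256, adjusted p = 0.000157) and 1.94 in Bin1 mck-/- mice (SE 0.378, adjusted p = 0.0174). Over all genes 12.1% rose in Dnm2 S619L/+ and 1.99% in Bin1 mck-/- mice, so 1 of 9 is near the background in the former. It stood at 4.60 to 6.65 CPM against 1.17 to 1.70 CPM in cohort G, and at 2.63 to 5.18 CPM against 0.487 to 1.25 CPM in cohort F, with no overlap. In Dnm2 S619L/+ mice Sox7 (-1.32, adjusted p = 0.0104), an endothelial SoxF factor, Sox13 (-0.93, adjusted p = 0.0155) and Sox6 (-0.50, adjusted p = 0.0328), SoxD factors, fell, where 9.81% of genes did. Endothelial markers (Pecam1, Cdh5, Kdr, Tek, Emcn and Tie1) summed to 177 to 502 CPM in these mice against 381 to 770 CPM in WT, and 4 of 6 fell, with none at 0; their part in the fall of Sox7 was not tested. Sox6, which represses slow-fiber genes, had 58.2 to 80.4 CPM in Bin1 mck-/- mice, all below WT at 102 to 133 CPM, but missed the threshold (-0.68, adjusted p = 0.0615). Under tamoxifen Sox5 rose in WT mice (0.81, adjusted p = 0.0487), where 15.8% of all genes rose. In the mutants 0 of 9 passed by edgeR or DESeq2 (1 in Dnm2 S619L/+ and 3 in Bin1 mck-/- mice had unadjusted p under 0.05). Over all genes 8.27% and 3.13% passed by edgeR in these mutants. The other 7 Sox genes, such as Sox2, did not pass the filter.

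Genes described elsewhere as SoxC targets were taken from studies of other tissues, and 5 of 7 were tested (Tead2, Tubb3, Map2, Ezh2 and Pdgfa, but not Dcx and Pax5). In the mutants on placebo, where Sox11 was high, 0 of 5 passed by edgeR or DESeq2, with medians of -0.18 in Dnm2 S619L/+ and 0.08 in Bin1 mck-/- mice (unadjusted p under 0.05 for 0 and 1 genes). With 21.9% and 2.61% of all genes called, a count of 0 among 5 is near the background. Tubb3, a neuronal beta-tubulin, had 0.192 to 0.383 CPM in Dnm2 S619L/+ and 0.134 to 0.632 CPM in WT mice. Tead2, a partner of the Hippo pathway's YAP, had 2.61 to 3.32 CPM against 2.69 to 5.72 CPM. Both rose in WT mice under tamoxifen, Tead2 by 0.92 (adjusted p = 0.0186) and Tubb3 by 1.59 (adjusted p = 0.0120), where 15.8% of all genes rose. Tead2 rose in Dnm2 S619L/+ mice as well (1.17, adjusted p = 0.0185), where 5.22% did.

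Markers of other cell types moved with the groups too. The 6 bone markers summed to 29.7 to 57 CPM in WT mice of cohort G, 294 to 923 CPM in WT treated, 11.6 to 18.8 CPM in Dnm2 S619L/+ and 47.1 to 528 CPM in Dnm2 S619L/+ treated mice. By edgeR 5 of 6 rose under tamoxifen in each genotype, so all tamoxifen results of cohort G stand beside this shift. In Bin1 mck-/- treated mice they summed to 18.3 to 24.4 CPM, with 293 CPM in mouse 2. Placebo mice of cohort F had 25.1 to 38.6 CPM in Bin1 mck-/- and 37.9 to 46.8 CPM in WT. Up to 4 of the 6 were at 0 in mice on placebo.

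Macrophage markers (Adgre1, Cd68, Csf1r, Itgam, Ptprc and C1qa, none at 0 in any mouse) summed to 25.8 to 45.1 CPM in WT and 84.6 to 197 CPM in WT treated mice of cohort G, and 5 of 6 rose. They summed to 37.9 to 158 CPM in Dnm2 S619L/+ mice and 66.0 to 138 CPM in Bin1 mck-/- mice, against 18.9 to 31.0 CPM in WT of cohort F. The mice with the highest Sox4 of WT treated and Dnm2 S619L/+ mice, at 62.0 and 38.6 CPM, also had the highest macrophage sums of their groups, 197 and 158 CPM. This did not hold in every group, since the WT mouse of cohort G with the highest Sox4, 16.1 CPM, had the lowest macrophage sum, 25.8 CPM.

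Bin1 mck-/- mouse 4, which had the highest Sox11, Sox4 and Sox12 of its group, also had marker sums apart from the other 3 mice. It had the group's highest macrophage sum (138 CPM), fibroblast sum (2824 CPM against 1340 to 2158 CPM) and tenocyte sum (1047 CPM against 104.9 to 257.2 CPM), and the lowest muscle fiber sum (81480 CPM against 96480 to 114000 CPM). The Sox11 values without this mouse are given above.

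Markers of connective tissue also moved in WT mice under tamoxifen, where Sox4 and Sox12 were called higher. Fibroblast markers (Pdgfra, Ly6a, Dcn, Dpt, Col3a1 and Lum) went from 838 to 1060 CPM in WT to 5600 to 10200 CPM in WT treated mice. Tenocyte markers went from 47.4 to 259 CPM to 718 to 1660 CPM, and chondrocyte markers from 3.73 to 7.75 CPM to 28.5 to 62.3 CPM. By edgeR 4 of 6, 5 of 6 and 3 of 5 tested rose, where 15.8% of all genes did. Col3a1 held most of the fibroblast sum (means 497 and 5960 CPM). Ly6a (means 47.4 and 50.3 CPM) and Dpt (39.4 and 44.6 CPM) overlapped between the groups. Mean Acan went from 0.305 to 33.2 CPM, and Col9a1 had a lower mean on tamoxifen. Muscle fiber markers went from 105000 to 128000 CPM down to 80700 to 96800 CPM. By edgeR 0 of 6 were called lower, where 11.9% of all genes were, though 6 had unadjusted p under 0.05 and DESeq2 called 4 lower. None of the fibroblast, tenocyte, chondrocyte and muscle fiber sums overlapped between the groups. In these mice 1 or 2 chondrocyte markers were at 0 and no fibroblast, tenocyte or muscle fiber marker was. With Sox4, mean log2 CPM correlated at r = 0.693 in cohort G and 0.713 in cohort F for macrophage markers (0.461 and 0.564 within groups), at 0.617 and 0.773 for fibroblast markers (0.274 and 0.611) and at -0.693 and -0.904 for muscle fiber markers (-0.479 and -0.833). With Sox12, r was 0.783 and 0.797 for chondrocyte markers (0.609 and 0.668 within groups), 0.745 and -0.106 for bone markers (0.676 and 0.0761) and 0.734 and -0.173 for fibroblast markers (0.764 and -0.0881). Only markers past the filter entered r, 6 bone markers in cohort G and 3 in cohort F. For chondrocyte markers these were 5 and 3, so both lists differ between the cohorts. The part of these cells in the SoxC results was not tested.

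**Figure D5:**
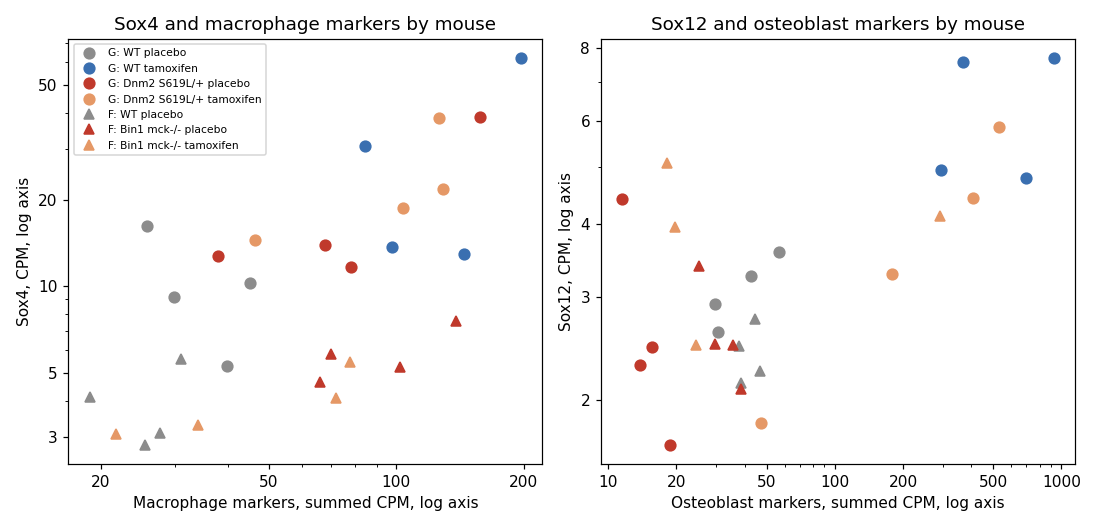
Sox4 against the summed CPM of 6 macrophage markers (left) and Sox12 against the summed CPM of 6 bone markers (right) in each mouse, all on log axes, with circles for cohort G and triangles for cohort F. WT treated mice of cohort G have bone sums of 294 to 923 CPM, a range that Dnm2 S619L/+ treated mice (47.1 to 528 CPM) overlap, and 2 of the WT treated mice have the highest Sox12, 7.68 and 7.56 CPM.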

How the data were processed

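The authors deposited raw counts of reads per Ensembl gene for tibialis anterior muscle, made from strand-specific polyadenylated RNA libraries. The labels list cutadapt 1.10, STAR 2.5.3, HTSeq 0.6.1p1 and the mm39 build; the annotation and strand setting are not given in the sources used here. In cohort F, 22.0% to 30.8% of counts lay on lines that name no gene and were left out. Names came from GENCODE M21 (52083 identifiers matched).

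Each cohort was fitted by itself with edgeR 4.0.16 (TMM, default low-count filter, robust quasi-likelihood F test, prior count 2, Benjamini-Hochberg over all 15439 genes of cohort G or 14841 of cohort F, threshold 0.05). Differences between cohorts in the tamoxifen effect used 1 fit of all 28 mice (16036 genes). Intervals and floors cover counting error only, and p-values the spread between these mice. Each SE is the size of the fold change fitted without the prior count, divided by the square root of its F statistic. It goes with that value, while the fold change printed carries the prior count. No 2 mice of a group agreed within counting noise. The scripts were tested on simulated data. The members and lists were chosen with earlier results of these data known. Beside the members, the genes named are up to 4 per list with the smallest p, all of a list of up to 9 genes where needed, the 8 most like each member, and Bin1; Chrng, Chrna1 and Chrnd were partly chosen after their values were seen. Alternatives were DESeq2 1.42.0, RLE scaling, no filter, the study's filter, fits of just the groups compared, a block for the replicate number and leaving out each mouse. Correlations within groups and list counts with DESeq2 were added after seeing the data.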

Additional observations from a re-analysis of the deposited data

Results flagged for a closer look

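Among 42 sets of 4 mice examined (the 3 SoxC genes and 3 marker lists in 7 groups), 2 had a mouse that stood far from the other 3, which is close to the 1 in 20 that chance gives. Sox4 stood at 38.6 CPM in Dnm2 S619L/+ mouse 4 against 11.7 to 13.9 CPM in the other mice of the group. The bone markers summed to 293 CPM in Bin1 mck-/- treated mouse 2 against 18.3 to 24.4 CPM in the others. Sox12 in that mouse was 4.13 CPM, within the 2.48 to 5.08 CPM of its group, and Sox11 was 0.152 CPM.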

How the results depend on the processing

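Sox11 in mutant against WT kept its direction in all alternatives run, at 5.61 to 6.23 in Dnm2 S619L/+, 3.06 to 3.44 with both on tamoxifen and 3.51 to 5.39 in Bin1 mck-/- mice (log2), the last value from DESeq2. The calls under tamoxifen were less stable. With no filter on low counts, Sox4 in WT was 1.56 (adjusted p = 0.124) and Sox11 in Dnm2 S619L/+ was -1.19 (adjusted p = 0.0541). With only the groups compared, they were 1.60 (adjusted p = 0.0605) and -1.15 (adjusted p = 0.0957). The difference of the Sox11 effects in Dnm2 S619L/+ and WT, described without a test, was -2.82 with DESeq2. Leaving out each mouse gave 1.13 to 1.69 for Sox11, 0.911 to 1.84 for Sox4 and 0.876 to 1.1 for Sox12 in WT, -1.42 to -1.03 for Sox11, -0.0694 to 0.867 for Sox4 and 0.226 to 0.813 for Sox12 in Dnm2 S619L/+ mice, and -2.89 to -2.32 for the difference of the Sox11 effects. Sox4 in Dnm2 S619L/+ reversed without treated mouse 2 (-0.0694, adjusted p = 0.967). The Sox12 difference between Bin1 mck-/- and Dnm2 S619L/+ mice, -0.268 to 0.314, reversed in 5 fits without 1 mouse. The cause was not tested. Sox11 did not pass the study's filter in either cohort, nor that of WT and WT treated mice fitted alone, so those fits gave it no value. Genes called by tamoxifen in Dnm2 S619L/+ numbered 1277, but 30 with only the groups compared and 368 to 2562 without 1 mouse, and in Bin1 mck-/- against WT 388, but 18 to 1458 over the alternatives. Leaving out 1 mouse moved those called by tamoxifen in Bin1 mck-/- (464) to 160 to 1253, by mutant against WT on tamoxifen (417) to 182 to 623, and by the differences of effects (40 and 274) to 1 to 293 and 6 to 2195.

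Replicate numbers did not pair the mice, since mice with the same number in different groups deviated with r of -0.325 to 0.335 in cohort G and -0.175 to 0.149 in cohort F. With the number as a block, Sox4 in WT was 1.35 (adjusted p = 0.109), and Sox12 in WT stayed past the threshold. The Sox11 calls, given no weight above, are not counted here. Genes called for the difference of tamoxifen effects went from 40 to 10 for Dnm2 S619L/+ minus WT and from 274 to 4 for Bin1 mck-/- minus Dnm2 S619L/+ with the block, and to 322 and 1349 with DESeq2. Sox11 in WT rested on 2 to 31 reads per mouse, which limits any statement on it.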
